A study of Mus musculus with 6 samples.

Results

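Tetraspanins, small membrane proteins that organise other receptors into clusters at the cell surface, were described at the mRNA level in the olfactory bulb (OB) of aged Tg2576 mice. The group held 10 genes, Cd82, Cd9, Cd63, Cd81, Cd151, Cd37, Cd53, Tspan2, Tspan7 and Tspan15, and was chosen from earlier results of the same arrays, around the difference of Cd82 between genotypes. Each gene was read through the array's probe set of that symbol, taking the set with the highest mean, and 9 of the 10 genes were found among the 22206 probe sets tested. A probe set named Tspan7 was not analysed here. The OBs came from 6 female mice of 18 months, each measured on its own array, an Affymetrix Clarion S for mouse. The 3 Tg2576 mice express human amyloid precursor protein with the Swedish double mutation under the hamster prion promoter, and the 3 wild-type (WT) mice were littermates without the transgene. Values are the deposited log2 levels after RMA (robust multi-array average), a normalization across arrays. Because the group was chosen with the difference between these genotypes in view, the values of its members are given as a description, and only other genes were tested.

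Tetraspanins cross the membrane several times and expose a small and a large loop outside the cell. Through these loops they bind integrins, immunoglobulin-domain proteins and proteases, and they are abundant on extracellular vesicles, of which Cd9, Cd63 and Cd81 are the usual markers. In the brain, Cd9 and Tspan2 are known from oligodendrocytes, and Cd37 and Cd53 from leukocytes and microglia. Tspan15 is known as a partner of the protease Adam10, which cleaves the amyloid precursor protein within the amyloid sequence. In bulk OB tissue, more cells of a type and more RNA per cell cannot be told apart.

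Cd82, Tspan15, Cd9, Cd63 and Cd81 were the members whose Tg2576 arrays all lay above the WT arrays, and the regions before the start sites of the first 4 are shown for comparison. The letters are the 250 bases before the start site from RefSeq (GRCm38.p6), 5′ to 3′ on the strand of the gene. Capitals mark matches, on either strand, to a loose form of the NFκB site (GGG and CC with any 5 bases between them), to TGANTCA (AP-1) or to TGACGT (the core of a cAMP response element). The GC box, GGGCGG, was also searched and is left in lower case. For Cd82, which has 4 annotated start sites, the most upstream one is shown; the second also held 2 matches to the NFκB form, and the other 2 held no match to any motif searched.
Cd82 (chr2:93462951-93463200, minus strand): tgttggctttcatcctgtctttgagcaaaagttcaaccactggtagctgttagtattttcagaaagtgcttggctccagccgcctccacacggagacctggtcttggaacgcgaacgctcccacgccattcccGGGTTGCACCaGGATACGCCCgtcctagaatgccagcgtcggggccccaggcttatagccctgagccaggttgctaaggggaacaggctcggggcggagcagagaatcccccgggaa
Tspan15 (chr10:62231219-62231468, minus strand): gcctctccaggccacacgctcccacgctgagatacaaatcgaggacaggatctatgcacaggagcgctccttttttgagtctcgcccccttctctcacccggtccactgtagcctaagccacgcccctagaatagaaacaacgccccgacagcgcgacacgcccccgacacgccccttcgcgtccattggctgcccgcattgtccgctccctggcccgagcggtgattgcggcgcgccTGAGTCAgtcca
Cd9 (chr6:125494761-125495010, minus strand): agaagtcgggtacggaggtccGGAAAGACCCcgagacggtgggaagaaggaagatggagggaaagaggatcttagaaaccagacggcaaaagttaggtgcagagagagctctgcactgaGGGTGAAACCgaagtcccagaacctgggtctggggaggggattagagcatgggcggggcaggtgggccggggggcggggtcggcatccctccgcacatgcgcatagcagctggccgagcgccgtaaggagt
Cd63 (chr10:128909095-128909344, plus strand): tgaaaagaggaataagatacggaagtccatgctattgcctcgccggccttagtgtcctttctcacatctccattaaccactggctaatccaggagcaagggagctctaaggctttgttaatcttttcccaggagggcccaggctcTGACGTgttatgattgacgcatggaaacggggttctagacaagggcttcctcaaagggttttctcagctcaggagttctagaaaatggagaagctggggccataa
The Cd82 region held 2 matches to the NFκB form, at positions -117 and -106 from the start site, and Cd9 also held 2, at -229 and -131. The Tspan15 region held 1 match to TGANTCA, at -12, and the Cd63 region 1 match to TGACGT, at -105. GGGCGG occurred in the Cd82 region at -26 and in the Cd9 region at -81 and -60. Before the second start site of Cd82, GGGCGG and a match to the NFκB form both began at -68. None of these motifs was matched in all 4 regions. The NFκB form also occurred in regions not shown, with 3 matches before Cd81 and 3 before each start site of Cd151. Tspan2 held 2 before its second start site and none before its first, and Cd37 and Cd53 held none. Over 32851 regions of this length in the RefSeq table, 45.8% held the NFκB form, 32.7% GGGCGG, 6.75% TGANTCA and 6.47% TGACGT, so the first match is common. A match is a description of the letters and not of binding. All 31 tetraspanin genes considered here matched a gene of the RefSeq table. Cd82 neighbours Tspan18 and Cd81 neighbours Tspan32 with no protein-coding gene between them, and Cd151 is separated from Tspan4 by Polr2l alone. The log2 difference between Tg2576 and WT of these neighbours was 0.08 (SE 0.09) for Tspan18, which lay below the negative controls of the array, -0.065 (SE 0.08) for Tspan32 and 0.17 (SE 0.13) for Tspan4 (limma, adjusted p = 0.867, 0.884 and 0.788).

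Cd82 had the widest separation between genotypes among the 9 tetraspanins. Cd82 (also known as KAI1) restrains cell migration and is known as a metastasis suppressor. Its log2 values were 10.49, 10.45 and 10.49 in Tg2576 replicates 1 to 3 and 9.88, 10.001 and 9.80 in WT replicates 1 to 3. The lowest Tg2576 array thus lay 0.45 above the highest WT array, and the Tg2576 arrays spanned 0.04 against 0.20 in WT. Tg2576 OBs averaged 10.47 ± 0.023 and WT OBs 9.89 ± 0.102 (SD over 3 mice), which is a log2 difference of 0.58 (SE 0.08) or a fold of 1.496.

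Tspan15 came second. Its values were 10.30, 10.49 and 10.36 in Tg2576 and 10.003, 9.90 and 9.78 in WT OBs. The genotypes did not overlap, and the gap between them was 0.30. Means of 10.38 ± 0.0947 and 9.89 ± 0.113 (SD over 3 mice) gave a log2 difference of 0.49 (SE 0.09), a fold of 1.40. Unlike Cd82, whose Tg2576 arrays were nearly equal, Tspan15 was highest in Tg2576 replicate 2. The thresholds of the study were a fold over 1.3 or under 0.7 together with an unadjusted limma p below 0.01. As a description only, since the choice of the group used this contrast, Cd82 and Tspan15 were the 2 members of 9 beyond these limits, both higher. Over all 22206 probe sets 0.698% were higher and 0.0991% lower at these thresholds. With no fold threshold the members past it were again these 2, beside 1.26% of all probe sets higher and 0.847% lower. With the p limit at 0.05 there were 4 members, all higher, beside 8.54% of all probe sets in either direction. Nothing is read from these counts of members.

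**Figure D1:**
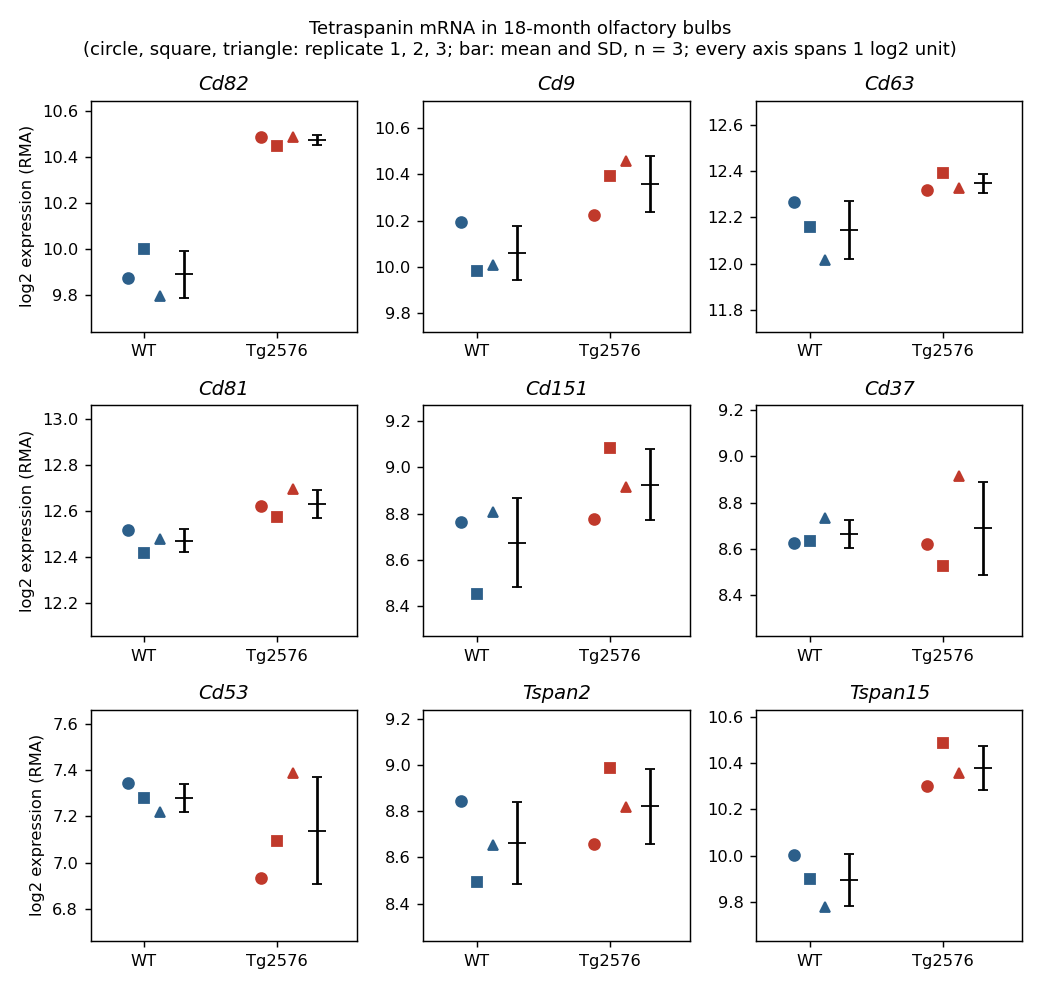
Log2 expression (RMA) of 9 tetraspanins in 3 WT and 3 Tg2576 OBs, 1 point per array with the mean and SD beside it, every axis spanning 1 log2 unit. The Tg2576 points of Cd82 and Tspan15 sit 0.45 and 0.30 above the highest WT point, those of Cd9, Cd63 and Cd81 lie just above the WT points, and those of Cd151, Cd37, Cd53 and Tspan2 overlap with them.

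The vesicle tetraspanins lay higher in Tg2576 OBs by smaller amounts. Cd9, which binds integrins and is found in myelin and on vesicles, was at 10.22, 10.39 and 10.46 in Tg2576 and at 10.19, 9.98 and 10.01 in WT OBs (means of 10.36 ± 0.120 and 10.06 ± 0.117, SD). The lowest Tg2576 array exceeded the highest WT array by only 0.03, against a difference of the means of 0.30 (SE 0.10) on the log2 scale. Cd63, a tetraspanin of late endosomes and lysosomes, was at 12.32, 12.39 and 12.33 in Tg2576 and at 12.27, 12.16 and 12.02 in WT OBs. Its difference was 0.20 (SE 0.09), with a gap of 0.05 between the genotypes. Cd81, a marker of extracellular vesicles, was at 12.62, 12.57 and 12.70 in Tg2576 and at 12.52, 12.42 and 12.48 in WT OBs. The difference of Cd81 was 0.16 (SE 0.08), a fold of 1.12, and its gap was 0.06. None of these 3 genes passed the fold threshold. With Cd82 and Tspan15 they made 5 of 9 members whose Tg2576 arrays all lay above the WT arrays, as did 7.03% of all probe sets. The choice of the group used this contrast.

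Cd151, Tspan2, Cd37 and Cd53 overlapped between genotypes. Cd151, the partner of laminin-binding integrins, was at 8.77, 9.08 and 8.92 in Tg2576 and at 8.76, 8.45 and 8.81 in WT OBs, a log2 difference of 0.25 (SE 0.12). Tspan2, a tetraspanin of oligodendrocytes, was at 8.66, 8.99 and 8.82 in Tg2576 and at 8.84, 8.49 and 8.65 in WT OBs, a difference of 0.16 (SE 0.12). For both genes replicate 1 was the lowest Tg2576 array, and WT replicate 2 was the lowest array of all. Cd37, a leukocyte tetraspanin, was at 8.62, 8.53 and 8.92 in Tg2576 and at 8.62, 8.63 and 8.73 in WT OBs. Its Tg2576 arrays held both its lowest and its highest value, and the difference was 0.02 (SE 0.11). Cd53, which is also made by leukocytes, was at 6.93, 7.09 and 7.39 in Tg2576 and at 7.34, 7.28 and 7.22 in WT OBs. Cd53 was the one member with a negative difference, -0.14 (SE 0.12), and Tg2576 replicate 3 was again the highest array. Cd53 was also the member nearest to background, which was between 6.78 and 6.91 as the median of the negative controls of each array.

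The members did not share 1 order of arrays. Within Tg2576, replicate 3 was the highest array for 5 of 9 members and replicate 2 for the other 4, whereas replicate 1 was the lowest for 6. Within WT, replicate 1 was the highest for 6 of 9. The SD between Tg2576 mice ran from 0.023 for Cd82 to 0.231 for Cd53, and that between WT mice from 0.0495 for Cd81 to 0.193 for Cd151. Leaving out any single array kept the difference of Cd82 between 0.53 and 0.64 and that of Tspan15 between 0.43 and 0.54. Cd9 ranged from 0.25 to 0.37 and Cd63 from 0.14 without WT replicate 3 to 0.26 without WT replicate 1. Cd81 ranged from 0.13 to 0.19, and Cd151 from 0.14 without WT replicate 2 to 0.33 without Tg2576 replicate 1. Tspan2 was at 0.07 without Tg2576 replicate 2 or WT replicate 2. Cd37 turned to -0.09 without Tg2576 replicate 3 and to -0.008 with array weights, while Cd53 stayed negative, from -0.27 to -0.04.

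**Figure D2:**
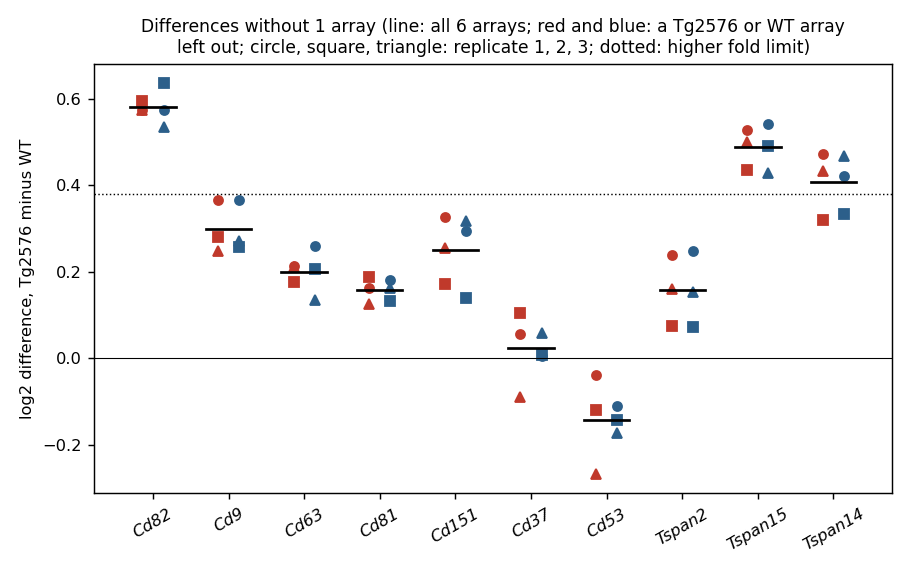
Log2 difference between Tg2576 and WT for the 9 tetraspanins and Tspan14 when 1 array is left out, red for a Tg2576 and blue for a WT array, with the value of all 6 arrays as a line and the higher fold limit dotted. Cd82 (0.53 to 0.64) and Tspan15 (0.43 to 0.54) stay above the limit, and Cd37 lies on both sides of 0.

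The other 21 mouse tetraspanins were tested across all probe sets. Tspan14, like Tspan15 a partner of Adam10, was the 1 of them that rose and none fell. Its values were 10.49, 10.80 and 10.57 in Tg2576 and 10.24, 10.06 and 10.33 in WT OBs, without overlap. The log2 difference was 0.41 (SE 0.11), past the thresholds of the study but not after Benjamini-Hochberg adjustment in limma (adjusted p = 0.407). The call of Tspan14 ended with array weights (0.38), without Tg2576 replicate 2 (0.32), without WT replicate 1 (0.42), without WT replicate 2 (0.33) and with the replicate number as a block. Over its 16 alternatives the adjusted p of Tspan14 ran from 0.163 to 0.670. It was the single gene of the 21 with an unadjusted p under 0.05, while 4.57% of all probe sets were higher and 3.97% lower at that level.

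Of these 21 genes 17 had a positive difference, with a median of 0.085 and a range from -0.19 to 0.41, where over all probe sets 48.4% were positive and the median was -0.005. The median of the 9 described members was 0.20. The Tg2576 arrays all lay above the WT arrays for 3 of the 21 and all below for 1, against 7.03% above and 7.03% below over all probe sets. The higher ones were Tspan14, Tspan13 (0.17, SE 0.08) and Tspan5 (0.10, SE 0.07), and the lower one was Prph2, a tetraspanin of photoreceptors whose level lay under the negative controls (-0.19, SE 0.09), the last 3 with adjusted p of 0.597, 0.759 and 0.600 (limma). Tspan1, Tspan6, Tspan8, Tspan10 and Tspan18 also lay under the negative controls, so 15 of the 21 were measured above the median of these controls. Their upper quartile was higher, at 8.17 to 8.27, and Tspan11, Upk1a, Upk1b and Cd53 (7.36, 7.51, 7.41 and 7.21 over all arrays) lay below it. The wide bar of Tspan1 (0.31, SE 0.29) belongs to such a low probe set.

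**Figure D3:**
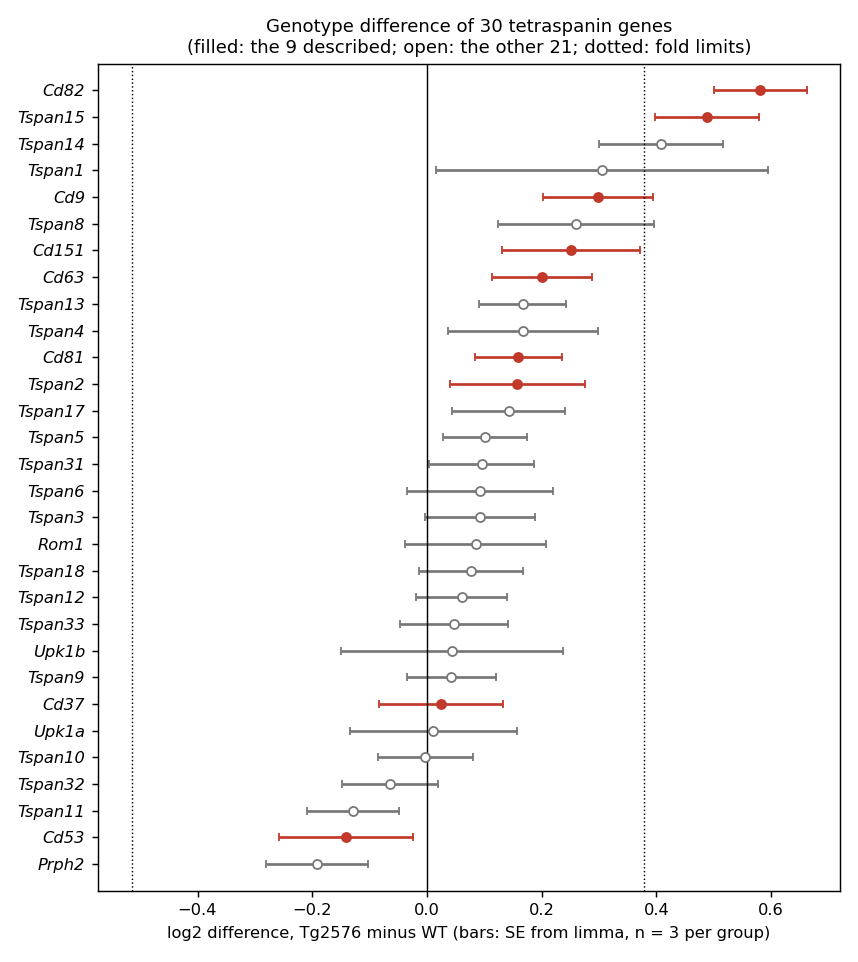
Log2 difference between Tg2576 and WT, with its SE, for 30 tetraspanin genes, filled for the 9 described members and open for the other 21, dotted lines marking the fold limits. Cd82 (0.58), Tspan15 (0.49) and Tspan14 (0.41) lie beyond the higher limit, and Prph2 has the lowest value (-0.19).

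Tetraspanins of the group called TspanC8 carry Adam10 to the cell surface. Its 6 genes gave differences of 0.49 for Tspan15, 0.41 for Tspan14, 0.14 (SE 0.10) for Tspan17, 0.10 (SE 0.07) for Tspan5, 0.05 (SE 0.09) for Tspan33 and -0.003 (SE 0.08) for Tspan10. Of the 5 outside the described group, only Tspan14 passed the thresholds. Tspan33 changed sign without 1 array (-0.02 to 0.11), and Tspan10 lay below the negative controls. Adam10 itself was at 10.45, 10.68 and 10.52 in Tg2576 and at 10.41, 10.22 and 10.57 in WT OBs. Its genotypes overlapped, with a log2 difference of 0.15 (SE 0.11) in limma (adjusted p = 0.749). The mouse App probe set, whose probes are not known here to bind the human transgene, differed by -0.02 (SE 0.08), so it did not serve to check the labels.

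Of 45 genes of known tetraspanin partners measured, 2 rose, none fell and 34 (75.6%) had a positive difference, with a median of 0.078. Over all probe sets 0.698% were called higher and 48.4% had a positive difference. Both were integrin chains that bind laminin in the basement membrane. Itga7 was at 10.15, 10.31 and 10.45 in Tg2576 and at 9.81, 9.96 and 9.62 in WT OBs, a log2 difference of 0.51 (SE 0.11). Itgb4, the chain that pairs with Itga6, was at 8.42, 8.52 and 8.45 in Tg2576 and at 8.09, 8.17 and 7.92 in WT OBs, a difference of 0.40 (SE 0.09). Neither overlapped between genotypes, and neither passed adjustment over all probe sets in limma (adjusted p = 0.351 and 0.339). Itga6 was at 0.29 (SE 0.07), under the fold threshold, with its Tg2576 arrays between 9.96 and 10.05 and its WT arrays between 9.65 and 9.76 (limma, adjusted p = 0.393). The other 6 of the 9 integrin chains had an unadjusted p above 0.05, among them Itgb1, the most common partner chain (0.05, SE 0.09), and Itga3 (0.11, SE 0.09). The call of Itgb4 ended without Tg2576 replicate 2 (0.37) and without WT replicate 3 (0.33). In the WT arrays Itgb4 lay below the upper quartile of their negative controls (8.18 to 8.27).

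The other partner lists held no call. Of 9 receptors, Erbb2, a receptor tyrosine kinase, was at 8.10, 8.03 and 8.01 in Tg2576 and at 7.74, 7.69 and 7.59 in WT OBs. Erbb2 thus lay below the upper quartile of the negative controls (8.17 to 8.27) in every array. Its log2 difference of 0.375 (SE 0.08) lay just under the fold limit of 0.379 (adjusted p = 0.332), and it passed both thresholds after cyclic loess (0.38) and with array weights (0.39), and when Tg2576 replicate 2 or 3, or WT replicate 1 or 2, was left out. Epcam, an epithelial adhesion gene whose level lay below the negative controls, differed by 0.30 (SE 0.11, adjusted p = 0.533) and passed without WT replicate 3 (0.42). Ackr1, an endothelial receptor that binds the CD82 protein in humans, was at -0.13 (SE 0.11). Among 6 measured immunoglobulin-domain partners, Ptgfrn, a partner of Cd9 and Cd81, differed by 0.18 (SE 0.07, adjusted p = 0.547), and its relative Igsf8 by 0.09 (SE 0.07).

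Genes of vesicle formation held no call. In limma 0 of 15 such genes passed the thresholds or reached an unadjusted p below 0.05, with a median of 0.031 and a range from -0.19 to 0.18. Pdcd6ip (ALIX) was at 0.11 (SE 0.09), Tsg101 at 0.08 (SE 0.09) and Sdcbp (syntenin) at 0.03 (SE 0.09). Rab35, a GTPase of recycling endosomes with the smallest p of the list, was at 0.18 (SE 0.08, adjusted p = 0.592). Of 5 palmitoyltransferases, which attach the fatty acid that tetraspanins carry, Zdhhc2 had the smallest p, with a difference of 0.18 (SE 0.08, adjusted p = 0.599). Whether the vesicle tetraspanins differed from these genes was not tested.

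The 5 genes whose values over the 6 arrays lay nearest to those of Cd82 were Nid1, Paqr6, Plcd4, Plin2 and Ddr2. Nearness was the root mean square distance of log2 values, each gene centred on its own mean, over the 10800 named probe sets whose mean was 8 or more. Nid1, a gene of the basement membrane, lay at a distance of 0.042, Paqr6, a membrane progestin receptor gene, at 0.058 and Plcd4, a phospholipase C gene, at 0.073. Plin2, which coats lipid droplets, followed at 0.094 and Ddr2, a collagen receptor gene, at 0.096. Like Cd82, all 5 had their highest WT value in replicate 2 except Paqr6, where WT replicates 1 and 2 were equal to the second decimal. Among tetraspanins the nearest to Cd82 was Tspan15, at 0.106, before Cd9 at 0.188 and Tspan14 at 0.194. These distances contain the difference between genotypes and describe likeness over 6 arrays only. All 5 genes passed the thresholds, with log2 differences of 0.54 for Nid1, 0.56 for Paqr6, 0.49 for Plcd4, 0.44 for Plin2 and 0.41 for Ddr2. Nearness to Cd82 includes this difference, so their passing is a description only. In limma their adjusted p was 0.339 for Plin2 and 0.332 for each of the others. Plin2 no longer passed without WT replicate 3 (0.37), nor Ddr2 without WT replicate 1 (0.37) or 3 (0.37).

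**Figure D4:**
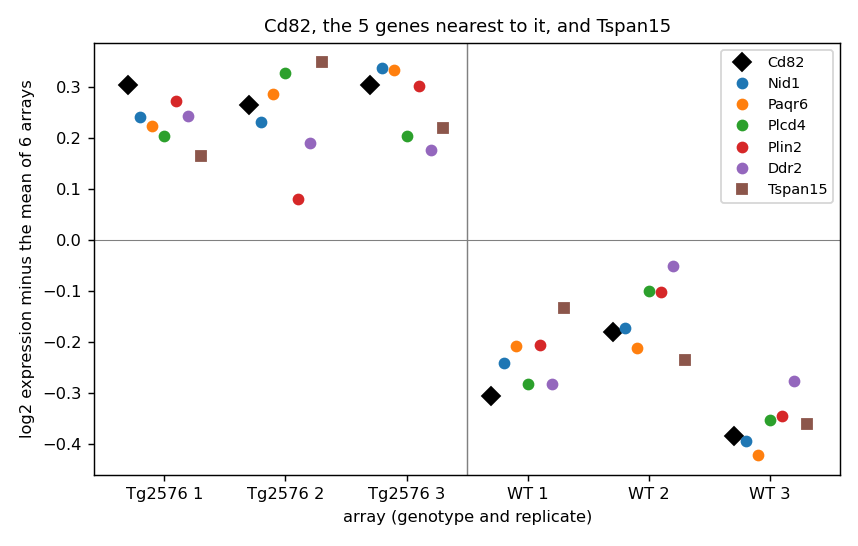
Log2 expression minus the mean of the 6 arrays for Cd82 (black diamonds), the 5 genes nearest to it (circles) and Tspan15 (squares), by array. In every Tg2576 array all 7 genes lie above 0 and in every WT array below it.

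Markers of other cell types were set beside the members, by distances that contain the difference between genotypes. The marker lists were chosen with earlier results of these data known. For comparison with every list below, 48.4% of all probe sets had a positive difference. At an unadjusted p under 0.05 4.57% were higher, and 0.698% were called higher at the thresholds. The 9 measured oligodendrocyte markers, none of which was below the negative controls, all had positive differences, with 6 at an unadjusted p under 0.05 and 1, Cldn11, past the thresholds (0.40, SE 0.10, adjusted p = 0.370 in limma). Cldn11 no longer passed without Tg2576 replicate 2 (0.34) or 3 (0.38), without WT replicate 2 (0.35) or 3 (0.39), or after quantile normalization (0.37). The mean deviation of the 9 markers from their WT mean was 0.15, 0.37 and 0.39 in Tg2576 replicates 1 to 3 and 0.10, -0.16 and 0.06 in WT replicates 1 to 3. Cd9 followed at 0.16, 0.33 and 0.40 and at 0.13, -0.08 and -0.05. Cd151 was at 0.10, 0.41 and 0.24 and at 0.09, -0.22 and 0.13, and Tspan2 at -0.003, 0.32 and 0.15 and at 0.18, -0.17 and -0.01. For each of Cd9, Cd151, Tspan2 and Tspan14 the oligodendrocyte list was the nearest of 12 marker lists, at distances of 0.061, 0.071, 0.10 and 0.097. In these 4 genes, as in the list, replicate 1 was the lowest Tg2576 array and replicate 2 the lowest WT array. The bulb neuron list had the same lowest array in each genotype, at 0.05, 0.14 and 0.07 in Tg2576 and 0.03, -0.05 and 0.02 in WT arrays. It lay at 0.134 from Cd9, 0.135 from Cd151, 0.111 from Tspan2 and 0.182 from Tspan14. Adam10 also had these lowest arrays. The part of oligodendrocyte RNA in the differences of the 4 genes was not tested.

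Cd82 and Tspan15 followed other lists less closely. Nearest to Cd82 were the markers of olfactory sensory neurons, at 0.133, whose Tg2576 deviations were 0.606, 0.253 and 0.695, against -0.10, 0.17 and -0.08 in WT arrays. In the mean of those markers Tg2576 replicate 2 lay below replicates 1 and 3, whereas Cd82 was at 0.594, 0.555 and 0.595. Replicate 2 was the lowest Tg2576 array for every single marker except Gng13, and also for Cd82, but by differing amounts. Omp was at 0.92, 0.789 and 0.925 and Gng13 at 0.428, 0.413 and 0.373 in Tg2576 replicates 1 to 3. Ano2 was at 0.358, -0.0887 and 0.588 and Umodl1 at 0.655, -0.0865 and 0.987. The means of Ano2 and Umodl1 (8.16 and 7.477) lay below the upper quartile of the negative controls (8.17 to 8.27). Of the 10 sensory neuron markers 4 rose, among them Omp (0.88, SE 0.17, adjusted p = 0.332), and 8 lay above the negative controls. The non-neuronal mucosa list was at 1.51, -0.31 and 1.44 in Tg2576 and at -0.37, -0.16 and 0.52 in WT arrays, with 11 of 12 positive and none past the thresholds. In that list Fetub (1.12) passed under 6 alternatives and Bpifb4 (1.92) under 2, among them without Tg2576 replicate 2 (1.58 and 2.80). Replicate 2 was the Tg2576 array where both were lowest, so leaving it out raised their differences. With all 6 arrays both overlapped between genotypes (limma, adjusted p = 0.473 and 0.496). Without Tg2576 replicate 2, the array with low mucosa markers, Cd82 differed by 0.59 and Tspan15 by 0.44. The Tg2576 arrays then left were those with high mucosa markers (1.51 and 1.44), so this cannot tell genotype and mucosa apart. Nearest to Tspan15 were the pericyte markers, at 0.143, and these were also nearest to Cd63, at 0.051. Other lists were nearly as near, oligodendrocyte (0.146) and astrocyte (0.154) to Tspan15 and astrocyte (0.055) to Cd63. The 7 pericyte markers all had positive differences, 4 of them at an unadjusted p under 0.05 and none past the thresholds, although Pdgfrb (0.35) passed without Tg2576 replicate 1 (0.38), without WT replicate 2 (0.40) and with no fold threshold. The list had deviations from 0.22 to 0.26 in Tg2576 and from -0.06 to 0.07 in WT arrays.

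Endothelial and microglial markers were nearest to Cd81 and to the leukocyte tetraspanins. The 10 endothelial markers, of which 1, Cldn5, rose (0.67, SE 0.13, adjusted p = 0.332 in limma), deviated by 0.22, 0.07 and 0.30 in Tg2576. In WT arrays they deviated by 0.03, 0.03 and -0.06. Cd81 lay at a distance of 0.059 from them. It lay nearly as close to the microglial (0.062), pericyte (0.065), astrocyte (0.068) and bulb neuron (0.0685) lists. The 9 measured microglial markers had none past the thresholds and deviated by 0.05, 0.04 and 0.11 in Tg2576 against 0.08, -0.02 and -0.07 in WT arrays. They were the nearest list to Cd53 (0.156) and, equally with the endothelial list, to Cd37 (0.125). The B and T cell list was nearly as near, at 0.159 from Cd53 and 0.136 from Cd37. Of 7 measured B and T cell markers 5 lay below the negative controls, and their deviations ran from -0.07 to 0.04 in Tg2576 and from -0.115 to 0.113 in WT arrays. Astrocyte markers, 7 of 8 positive and 1, Gfap, past the thresholds (0.43, SE 0.11, adjusted p = 0.381), had deviations from 0.16 to 0.25 in Tg2576 and from -0.04 to 0.03 in WT arrays. Gfap no longer passed without Tg2576 replicate 2 (0.41) or 3 (0.39), or without WT replicate 1 (0.41) or 3 (0.35). All 10 markers of bulb neurons lay above the negative controls, as the tissue label requires, and 1, Tbx21, rose (0.48, SE 0.14, adjusted p = 0.446). Of 6 markers of oligodendrocyte precursors 1, Sox10, rose (0.38, SE 0.10, adjusted p = 0.393), as did 1 of 7 meningeal markers, Dcn (0.54, SE 0.14, adjusted p = 0.407), and none of 6 of the choroid plexus. No longer past the thresholds were Tbx21 and Sox10 without Tg2576 replicate 2 (0.34 and 0.33) or 3 (0.49 and 0.39) or WT replicate 2 (0.48 and 0.37), Tbx21 without WT replicate 1 (0.44) or with array weights (0.46), and Sox10 without WT replicate 3 (0.32) or when renormalized by medians (0.37), quantiles (0.36) or cyclic loess (0.37). Dcn did not pass without Tg2576 replicate 1 (0.53) or 2 (0.50) or WT replicate 3 (0.37). The part of any of these cell types in the differences of the tetraspanins was not tested.

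**Figure D5:**
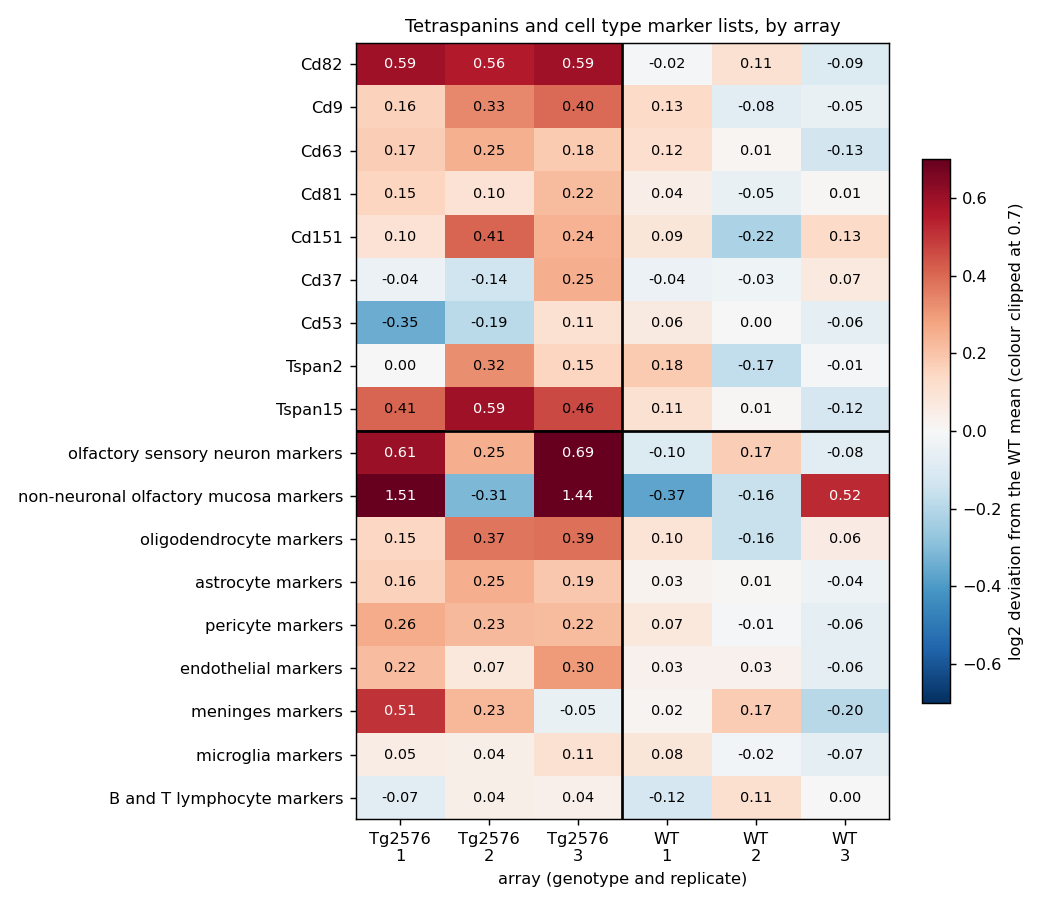
Log2 deviation from the WT mean by array, for 9 tetraspanins (top) and for the mean of 9 cell type marker lists (bottom), with the colour clipped at 0.7. Oligodendrocyte markers and Cd9, Cd151 and Tspan2 are lowest in Tg2576 replicate 1 among the Tg2576 arrays, while the mucosa markers are at 1.51, -0.31 and 1.44 in Tg2576 and Cd82 at 0.594, 0.555 and 0.595.

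Over the whole series limma called 155 probe sets higher and 22 lower in Tg2576 OBs. After Benjamini-Hochberg adjustment limma called 0 at a 5% false discovery rate, where 1896 had an unadjusted p under 0.05. The robust form of limma-trend called 9, and limma without Tg2576 replicate 2 called 6. An exact test of 3 mice against 3 cannot go below a p of 0.10. Precision is limited by having 3 arrays per genotype. The array medians lay between 8.18 and 8.22, and no pair of arrays held identical values.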

How the data were processed

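The OBs of 3 Tg2576 and 3 WT mice were compared, with genotype and replicate taken from the sample labels. The authors deposited log2 values summarised and normalized by RMA, which corrects background, aligns arrays by quantiles and summarises probes. The version of RMA and which arrays were normalized together are not given in the sources used here. Of 28815 rows, 63 spike-in and 6546 other control sets were left out. Of the 22206 probe sets tested, 19572 had 1 gene symbol, 0 several and 2634 none in the array's annotation, and no listed gene had more than 1 probe set.

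Genotypes were compared in a linear model with limma 3.58.1 in R 4.3.3, with moderated variances (8.47 degrees of freedom in all), and p-values were adjusted over all probe sets. The thresholds were those of the study, a fold over 1.3 or under 0.7 together with an unadjusted p below 0.01, the fold limits being taken from the name of a supplementary sheet. Rose and fell are used of tested genes past them. Standard errors are those of limma. The fit was tested on simulated data. The members and the lists of other tetraspanins, partners and cell type markers were chosen with earlier results of these data known.

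Above or below the negative controls refers to the median of those probe sets. Named genes were the 9 members found, App, Adam10 and the TspanC8 genes, every other tetraspanin or partner gene with an unadjusted p under 0.05 or else the smallest p of its list, the 5 genes nearest to Cd82, and up to 2 genes of smallest p per cell type list. Tspan1, Tspan4, Tspan6, Tspan8, Tspan11, Tspan13, Tspan18, Tspan32, Upk1a, Upk1b, Prph2, Itga3, Itgb1, Ackr1, Igsf8, Pdcd6ip, Sdcbp, Tsg101, Gng13, Ano2 and Umodl1 were named beside this rule, after their values were seen. Figures were drawn with matplotlib 3.10.9 in Python 3.11.15. The alternatives tried were a replicate block, leaving out each array, array weights, the robust form of limma-trend, renormalization by quantiles, medians or cyclic loess, a minimum mean of 6, only probe sets with 1 gene symbol, and an equal or no fold threshold.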

Additional observations from a re-analysis of the deposited data

How the results depend on the processing

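The count of members beyond the thresholds, a description of genes chosen on this contrast, was 2 higher and 0 lower under all 16 alternatives, of which the equal fold limits and the absence of one could not lower it. The count of other tetraspanins that rose was 0 with array weights and 0 with the replicate block, and 0 to 1 without 1 array. Among partner genes 4 rose with no fold threshold and 2 to 3 without 1 array. Over all probe sets, the higher count was 280 and the lower 188 with no fold threshold, the lower count 75 with equal fold limits, and 23 to 47 without 1 array (47 without WT replicate 1). Of 223 values of 14 named tetraspanins under the alternatives, 5 ended a call, all of Tspan14, and none gained one. Over the 53 named genes no called value changed sign. The deviations of same-numbered arrays correlated at 0.036, -0.038 and -0.043 over probe sets, and those of other pairs from -0.126 to 0.149. With 3 arrays per genotype these values cannot show whether the replicate numbers pair the mice. The replicate block gave 200 higher and 25 lower probe sets, and ended the call of Tspan14 at 0.41. The mean of all probe sets of a gene was not run, because each listed gene had 1. The causes of these changes were not tested. Low signal limits Cd53, the 6 tetraspanins under the negative controls and genes below the upper quartile of these controls, Erbb2 among them.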
